A study of Mus musculus and Rattus norvegicus with 85 samples.

Results

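The genes described here are 10 targets of the transcription factor p53, Cdkn1a, Mdm2, Sesn1, Ccng1, Plk2, Bax, Trp53inp1, Phlda3, Gdf15 and Btg2, in the lungs of mice and rats that inhaled chloroprene. They were found by symbol: every probe set annotated to 1 of these symbols alone was taken, whatever its values. In the mouse this gave 19 of 45101 probe sets for 8 of the 10 genes, and 17 of them passed the filter on low signals. In the rat it gave 12 of 31099 probe sets for 8 genes, and 11 probe sets of 7 genes passed. The mouse genes Bax and Gdf15 and the rat gene Btg2 had no probe set of their own in the annotation used, and rat Bax shared its probe set with another symbol, so none of these was analysed here.

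Chloroprene is a volatile chlorinated diene from which neoprene rubber is made. Female B6C3F1/Crl mice and female rats, given as F344/NCrl in the study's design and as F334/NCrl in the sample labels, breathed it whole-body from an age of 10 weeks, for 6 h per day on 5 days per week. The mouse groups were 0, 0.3, 2, 13 and 90 ppm for 5 exposure days, and 0.3, 2, 13 and 90 ppm for 15 exposure days. The rat groups were 5, 30, 90 and 200 ppm, for 5 and for 15 exposure days. Each group held 5 animals with 1 array of the right lung each, 45 arrays in the mouse and 40 in the rat. Mice at 0 ppm for 15 days and rats at 0 ppm were not analysed here, so the reference there was 0.3 ppm or 5 ppm, and a change already present at that concentration was not measured.

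The values are log2 signals on Affymetrix arrays, and a difference of 1 is a factor of 2. Changes below are differences of group means, each ± its standard error from limma. A gene is said to have risen or fallen where the p adjusted by Benjamini-Hochberg over all probe sets tested in that species was under 0.05. Where a gene had several probe sets, the one with the highest mean signal stands for it, and others are given where they bear on the result. The lung markers fitted the label: the mean of 8 alveolar type 2 markers was 13.55 to 14.05 on the mouse arrays and that of 9 markers 12.99 to 13.26 on the rat arrays, and club cell and alveolar type 1 markers were also high (lowest array mean 14.54 and 13.22 in the mouse, 12.08 and 12.50 in the rat). In whole lung, fewer cells of a type and less RNA per cell cannot be told apart. The medians of single arrays spanned only 7.27 to 7.37 in the mouse and 7.25 to 7.32 in the rat. Precision is limited by the 5 arrays of a group. The p-values rest on an estimate of the spread between animals that all groups of a species share, not on the compared groups alone.

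The protein p53 accumulates when DNA is damaged or the cell is otherwise stressed, binds DNA as a tetramer and switches on genes that stop the cell cycle, repair damage or start apoptosis. It also switches on Mdm2, the ubiquitin ligase that marks p53 for degradation, which closes a negative feedback loop. Several of its targets, Cdkn1a, Plk2 and Btg2 among them, also respond to other signals such as growth factors, glucocorticoids or cell differentiation.

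The site that p53 binds is made of a pair of half-sites of 10 letters. The mouse promoter windows of RefSeq, 250 bases before to 50 bases after a start on GRCm38.p6, held 9 of the 10 genes in 12 windows, and 5 of the 12 held at least 1 half-site, against 8.36% of all 32851 windows (both strands searched). An adjacent pair with at most 1 of its 20 letters off was in 2 of the 12, those of Cdkn1a and Ccng1, and in 22 of all windows (0.067%). They are shown because Cdkn1a rose in the exposed mice and Ccng1 did not pass, although both windows hold such a pair. The capitals mark the half-sites and pairs.

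Cdkn1a, upstream start, chr17:29090729-29091028, plus strand: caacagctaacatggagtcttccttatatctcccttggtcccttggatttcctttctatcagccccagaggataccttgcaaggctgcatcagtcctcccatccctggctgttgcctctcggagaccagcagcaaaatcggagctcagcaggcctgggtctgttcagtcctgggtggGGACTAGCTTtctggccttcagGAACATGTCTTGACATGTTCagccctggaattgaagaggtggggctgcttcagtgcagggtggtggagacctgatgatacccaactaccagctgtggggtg

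Ccng1, chr11:40755237-40755536, minus strand: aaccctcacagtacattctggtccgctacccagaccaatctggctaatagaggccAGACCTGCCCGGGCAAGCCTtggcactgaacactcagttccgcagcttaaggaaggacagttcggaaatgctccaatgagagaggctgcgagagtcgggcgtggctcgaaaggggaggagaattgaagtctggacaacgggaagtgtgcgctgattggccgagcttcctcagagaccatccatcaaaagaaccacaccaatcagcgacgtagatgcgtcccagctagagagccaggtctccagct

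In the Cdkn1a window the pair begins 51 bases before the start and a further half-site stands 73 bases before it. In the Ccng1 window the pair begins 195 bases before the start. The windows of Mdm2, Bax and the second start of Sesn1 held 1 half-site each, and those of Btg2, Phlda3, Gdf15, Plk2, the first start of Sesn1 and the downstream start of Cdkn1a held none. A match is a description of these letters, and a missing match says nothing about p53 elsewhere in the gene.

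After 5 days at 90 ppm in the mouse, Cdkn1a rose and Plk2 fell, and the other 6 genes tested did not pass. After 15 days at 90 ppm, Cdkn1a, Mdm2, Sesn1 and Trp53inp1 rose and none fell. At 5 days, 90 against 0 ppm, 15.4% of all 13796 genes passed in either direction (8.55% rose and 6.88% fell), so 2 of 8 is not far from the background. At 15 days, 90 against 0.3 ppm, 7.16% of genes passed (4.32% rose and 2.84% fell), against 4 of 8. The median change of the 8 genes was 0.12 at 5 days, where that of all genes was 0.01, and 0.26 at 15 days, where that of all genes was -0.01. The 2 comparisons have different reference concentrations.

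**Figure D1:**
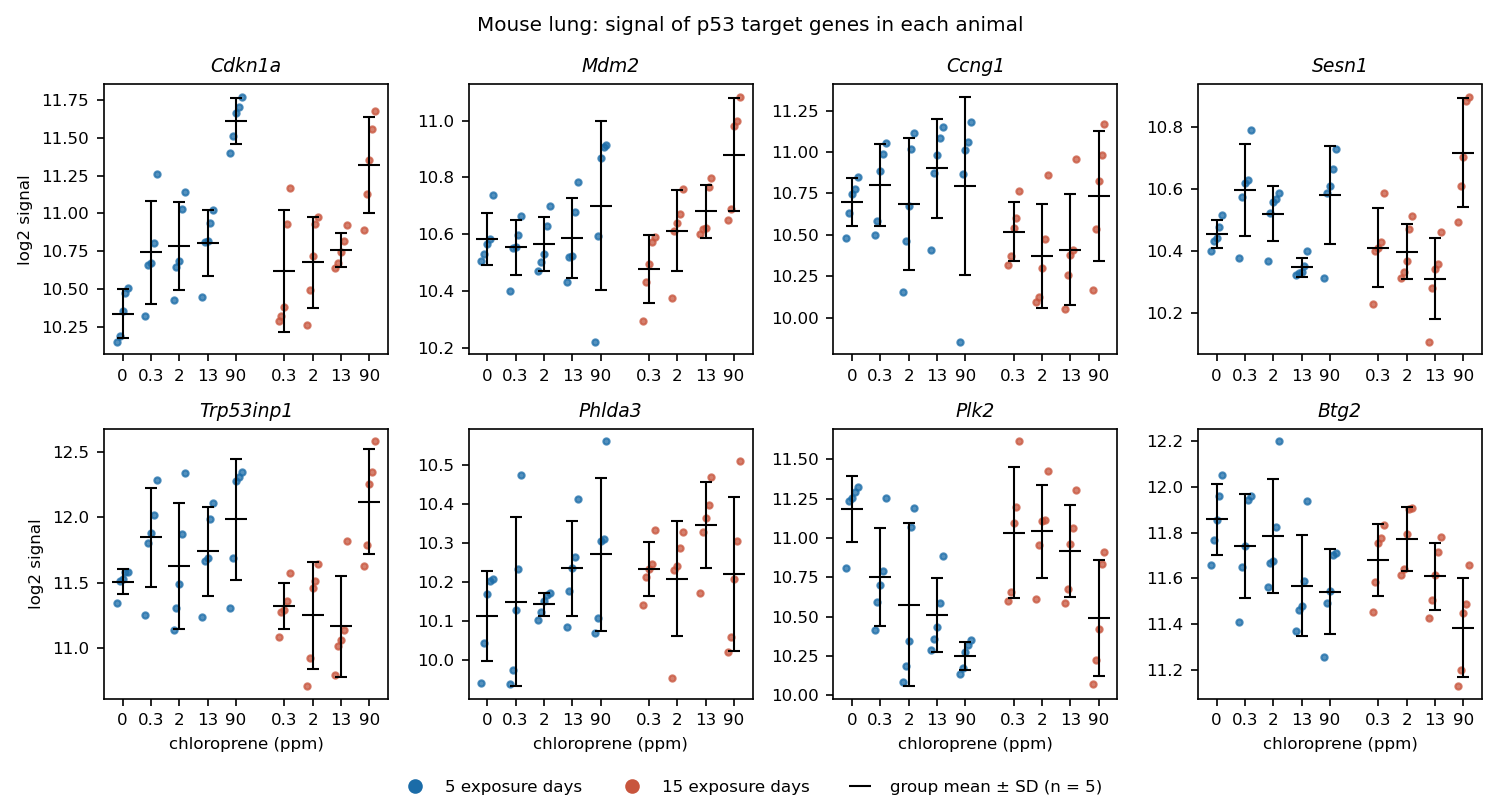
Log2 signal of the 8 p53 target genes measured in mouse lung, by concentration in ppm, after 5 (blue) and 15 (red) exposure days. Points are animals, black bars the group mean ± SD (n = 5), and each panel has its own axis. Each panel shows the probe set that stands for its gene. Cdkn1a at 90 ppm lies above all other 5-day groups, Plk2 at 90 ppm below the 0 ppm group, and 1 mouse at 90 ppm for 5 days lies far below its group for Ccng1.

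Cdkn1a encodes p21, the inhibitor of cyclin-dependent kinases through which p53 halts the cell cycle. Its signal at 90 ppm for 5 days was 11.40, 11.51, 11.66, 11.70 and 11.77, against 10.15, 10.19, 10.36, 10.48 and 10.51 at 0 ppm. All 5 exposed mice lay above all 5 mice at 0 ppm, and also above every mouse at 0.3, 2 and 13 ppm, where the highest values were 11.26, 11.14 and 11.02. The change was 1.27 ± 0.17, a 2.42-fold rise (adjusted p = 4.6e-07), and the second probe set rose by 1.07 ± 0.15 (adjusted p = 1.38e-06).

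The lower concentrations of Cdkn1a formed a plateau between these groups. The 5-day means were 10.34 ± 0.16 at 0 ppm, 10.74 ± 0.34 at 0.3 ppm, 10.78 ± 0.29 at 2 ppm, 10.81 ± 0.22 at 13 ppm and 11.61 ± 0.15 at 90 ppm (SD, n = 5 each). The groups at 0.3, 2 and 13 ppm overlapped with each other and with the 0 ppm group. In each of these 3 groups, 4 of 5 mice lay above the highest mouse at 0 ppm. Their changes against 0 ppm did not pass: 0.41 ± 0.17 at 0.3 ppm (adjusted p = 1), 0.45 ± 0.17 at 2 ppm (adjusted p = 0.213) and 0.47 ± 0.17 at 13 ppm (adjusted p = 0.221). On the second probe set the same changes were 0.17, 0.15 and 0.18. With the 0.3 ppm mice as the reference, the rise at 90 ppm was 0.87 ± 0.17 (adjusted p = 0.00047), in a comparison where 8.94% of genes passed.

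After 15 days Cdkn1a was at 10.89, 11.13, 11.35, 11.55 and 11.68 in the mice at 90 ppm, against 10.29, 10.32, 10.38, 10.93 and 11.17 in those at 0.3 ppm. The groups overlapped on this probe set, with 3 of 5 exposed mice above all of the others. The change was 0.70 ± 0.17, or 1.63-fold (adjusted p = 0.00578). The second probe set separated the groups, with 9.24 to 9.77 at 90 ppm against 8.54 to 9.13 at 0.3 ppm and a change of 0.81 ± 0.15 (adjusted p = 0.000284). Without the mice of conflicting duration the first probe set passed and the second did not (0.80, adjusted p = 0.079). The 15-day means at 2 and 13 ppm, 10.68 ± 0.30 and 10.76 ± 0.11, overlapped with the 10.62 ± 0.40 at 0.3 ppm. The change from 0.3 to 90 ppm was 0.16 ± 0.23 smaller at 15 than at 5 days (95% interval of the difference -0.64 to 0.31, adjusted p = 0.823).

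Btg2, an antiproliferative gene of the cell cycle that growth signals also induce, did not pass in any comparison. At 5 days it was at 11.26, 11.49, 11.54, 11.70 and 11.71 in the mice at 90 ppm, against 11.66, 11.77, 11.86, 11.96 and 12.05 in those at 0 ppm. The groups overlapped and the change was -0.32 ± 0.12 (adjusted p = 0.0736). At 15 days the change from 0.3 to 90 ppm was -0.30 ± 0.12 (adjusted p = 0.156), and the second probe set was at -0.50 ± 0.24 and -0.22 ± 0.24 at the 2 times.

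Ccng1 encodes cyclin G1, which recruits a phosphatase to Mdm2, and has the other promoter pair shown above. At 90 ppm for 5 days it was at 9.85, 10.87, 11.01, 11.06 and 11.18, against 10.48, 10.63, 10.75, 10.78 and 10.85 at 0 ppm. Of the exposed mice 4 lay above all mice at 0 ppm and 1, mouse 165, lay below all of them. The change was 0.10 ± 0.20 (95% interval -0.32 to 0.51, adjusted p = 0.84). At 15 days it was 0.22 ± 0.20 (95% interval -0.20 to 0.63, adjusted p = 0.688), and the other probe sets of Ccng1 gave 0.33 and 0.23.

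Mdm2, the ubiquitin ligase of the feedback loop, passed at 15 days. Its signal at 90 ppm was then 10.65 to 11.08 with a median of 10.98, against 10.30, 10.43, 10.49, 10.57 and 10.59 at 0.3 ppm. The groups did not overlap. The change was 0.40 ± 0.10, or 1.32-fold (adjusted p = 0.0077), and the second probe set rose by 0.52 ± 0.11 (adjusted p = 0.00141). Without the 9 mice whose duration labels conflict neither probe set passed (0.33, adjusted p = 0.373, and 0.48, adjusted p = 0.152), and without the 6 with a lettered number the first did not (0.46, adjusted p = 0.0503). The 15-day means at 2 and 13 ppm, 10.61 ± 0.14 and 10.68 ± 0.09, lay between those groups. Their changes of 0.13 and 0.20 did not pass (adjusted p = 0.943 at 13 ppm). All 5 mice at 13 ppm lay above all 5 at 0.3 ppm, but only just, with a lowest value of 10.60 against a highest of 10.59. On the second probe set these groups overlapped, with 9.10 to 9.67 at 13 ppm against 9.13 to 9.40 at 0.3 ppm.

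At 5 days Mdm2 was at 10.22, 10.59, 10.87, 10.91 and 10.91 in the mice at 90 ppm, against 10.50, 10.53, 10.56, 10.58 and 10.74 in those at 0 ppm. Here 3 exposed mice lay above all mice at 0 ppm and mouse 165 below all of them. The change was 0.12 ± 0.10 (95% interval -0.08 to 0.32, adjusted p = 0.519), and 0.24 without mouse 165 (adjusted p = 0.081). From 0.3 to 90 ppm, the change at 15 days was 0.26 ± 0.14 larger than at 5 days (adjusted p = 0.756), so a difference between the times was not shown.

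Sesn1 encodes sestrin 1, which restrains mTOR signalling and protects against peroxides. At 90 ppm for 15 days it was at 10.49, 10.61, 10.70, 10.88 and 10.90, against 10.23, 10.40, 10.41, 10.43 and 10.59 at 0.3 ppm. Of the exposed mice 4 lay above all of the others. The change was 0.31 ± 0.08, or 1.24-fold (adjusted p = 0.0113). The probe sets of Sesn1 differed: a second one also rose by 0.35 ± 0.10 (adjusted p = 0.0252), while 2 others were at 0.16 ± 0.12 and 0.02 ± 0.14. The rise did not pass without mouse 179 (0.26, adjusted p = 0.0514), without mouse 127 (0.26, adjusted p = 0.0524) or with the 15-day arrays alone (0.31, adjusted p = 0.0553). The second probe set also lost its call with those arrays alone (adjusted p = 0.0611) and without mouse 177, 179, 180, 126 or 127, with changes of 0.29 to 0.44 over the 10 mice. Without the mice of conflicting duration the 2 probe sets were at 0.29 and 0.36 (adjusted p = 0.25 for both). At 5 days the change from 0 to 90 ppm was 0.13 ± 0.08 (adjusted p = 0.336). The weakest of the probe sets, at 6.25 to 6.98 at 90 ppm against 6.85 to 7.18 at 0 ppm, fell by 0.48 ± 0.14 there (adjusted p = 0.0202), a call lost without mouse 101, 168 or 169, with changes of -0.59 to -0.41 over the 10 mice. It also did not pass against the 0.3 ppm mice (-0.40, adjusted p = 0.0836) or in a fit with RNA integrity numbers (-0.48, adjusted p = 0.191).

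Trp53inp1 encodes a nuclear cofactor of p53 that also takes part in autophagy. At 90 ppm for 15 days it was at 11.62, 11.79, 12.25, 12.35 and 12.58, against 11.09, 11.27, 11.29, 11.36 and 11.58 at 0.3 ppm. The groups did not overlap, and the change was 0.80 ± 0.22, or 1.74-fold (adjusted p = 0.0225). The second probe set was at 0.60 ± 0.20 (adjusted p = 0.07). The call was lost without mouse 178, 179, 180 or 125, each in turn (adjusted p = 0.0503, 0.0853, 0.0735 and 0.0654), and without the mice of conflicting duration (0.65, adjusted p = 0.506). At 5 days Trp53inp1 was at 11.31, 11.69, 12.27, 12.30 and 12.34 in the mice at 90 ppm, against 11.35, 11.51, 11.52, 11.58 and 11.58 in those at 0 ppm. Of the exposed mice 4 lay above all of the others and mouse 165 below them, with a change of 0.48 ± 0.22 (adjusted p = 0.172). Against the 0.3 ppm mice of the same time the change was 0.14 ± 0.22.

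Phlda3, which blocks the kinase Akt at the membrane, did not pass in any comparison. Its 5-day values were 10.07, 10.11, 10.31, 10.31 and 10.56 at 90 ppm, against 9.94, 10.04, 10.17, 10.20 and 10.21 at 0 ppm, and the groups overlapped. The change was 0.16 ± 0.09 (95% interval -0.03 to 0.35, adjusted p = 0.307) at 5 days and -0.01 ± 0.09 (95% interval -0.20 to 0.17, adjusted p = 0.973) at 15 days.

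Plk2, a polo-like kinase that p53 and serum both induce, moved the other way. At 90 ppm for 5 days it was at 10.14, 10.17, 10.27, 10.32 and 10.35, against 10.81, 11.24, 11.25, 11.29 and 11.33 at 0 ppm. The groups did not overlap, and Plk2 fell by 0.93 ± 0.20 on the log2 scale, a 1.91-fold fall (adjusted p = 0.000958). The 5-day means were 11.18 ± 0.21 at 0 ppm, 10.75 ± 0.31 at 0.3 ppm, 10.58 ± 0.52 at 2 ppm, 10.51 ± 0.24 at 13 ppm and 10.25 ± 0.09 at 90 ppm (SD, n = 5 each). Neighbouring groups overlapped along the whole order, and the changes against 0 ppm of -0.43, -0.61 and -0.67 at 0.3, 2 and 13 ppm did not pass (adjusted p = 1, 0.138 and 0.104).

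The fall of Plk2 passed without each of the 10 mice in turn, with changes of -1.03 to -0.90. Against the 0.3 ppm mice the 5-day change was -0.50 ± 0.20 (adjusted p = 0.118). In a fit with RNA integrity numbers, which leaves 2 of the 5 mice at 0 ppm, it was -0.74 (adjusted p = 0.12). At 15 days Plk2 was at 10.07, 10.22, 10.42, 10.83 and 10.91 in the mice at 90 ppm, against 10.60, 10.66, 11.10, 11.20 and 11.62 in those at 0.3 ppm, and the groups overlapped. The change was -0.54 ± 0.20 (adjusted p = 0.106).

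At the lower concentrations none of the 8 mouse genes passed. By limma's unadjusted p under 0.05, 3 of 8 were counted at 13 ppm and 2 of 8 at 2 and at 0.3 ppm after 5 days, against 0 ppm. After 15 days 1 of 8 was counted at 13 ppm and 0 at 2 ppm, against 0.3 ppm. The same unadjusted count took 11.3%, 12.5% and 3.65% of all genes at 13, 2 and 0.3 ppm after 5 days, and 5.68% and 3.63% at 13 and 2 ppm after 15 days. Of all genes, 1.09%, 0.863% and 0% passed the adjusted threshold at 13, 2 and 0.3 ppm after 5 days, and 0.297% and 0.101% at 13 and 2 ppm after 15 days. How far 90 ppm moved a gene from 0.3 ppm differed between 5 and 15 days for 0 of the 8 by limma (2 of 8 by unadjusted p, Trp53inp1 and Sesn1) and for 0.0435% of all genes (6.26% by unadjusted p).

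**Figure D2:**
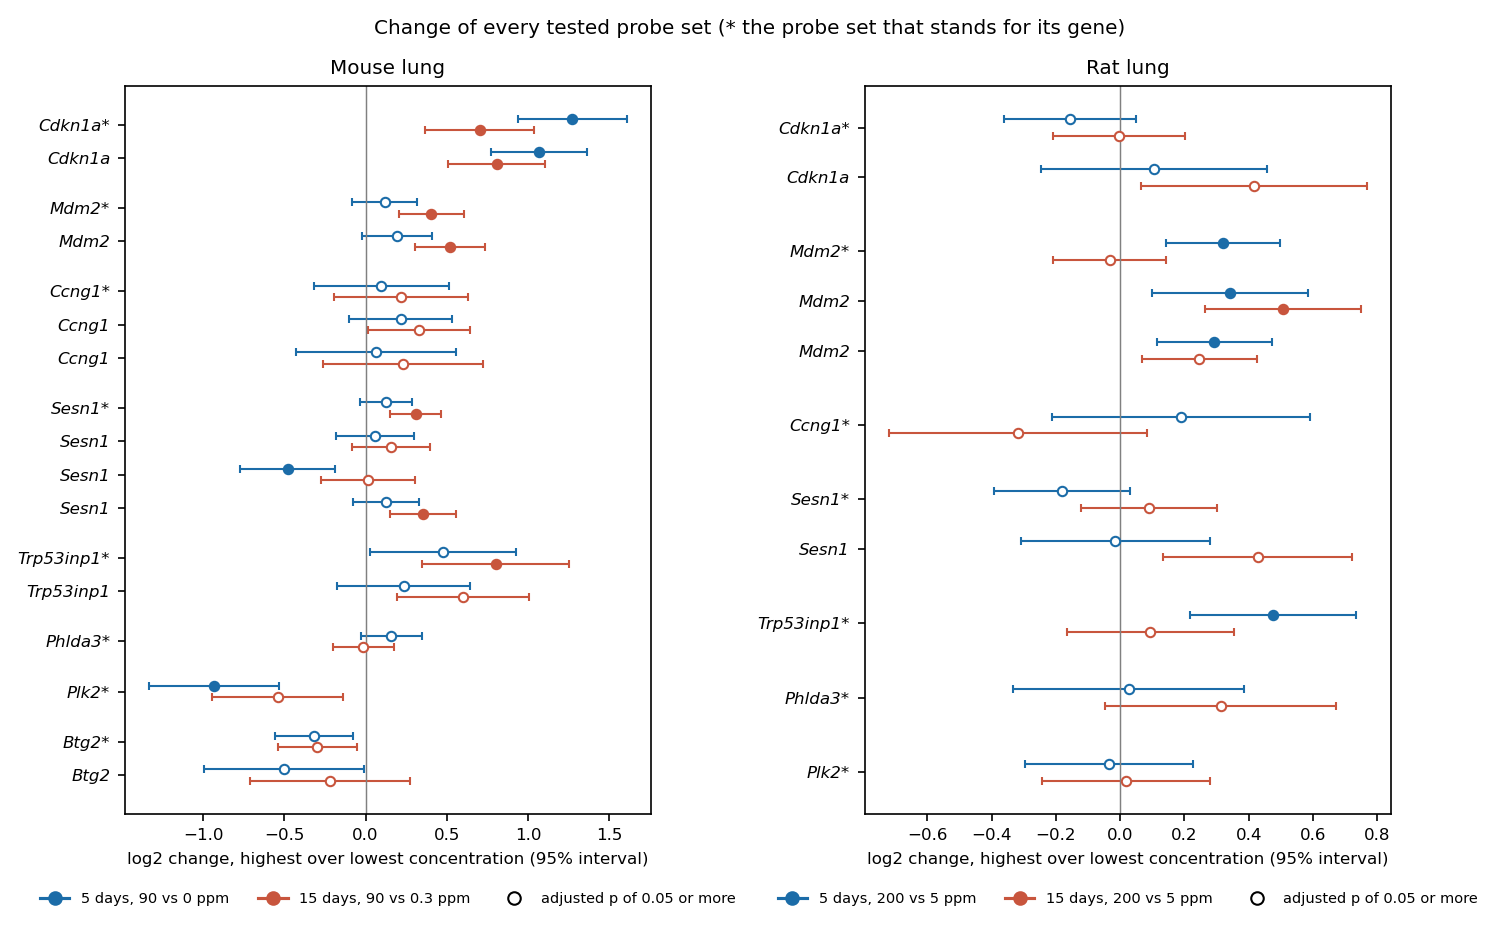
Log2 change of every tested probe set of the p53 target genes, highest over lowest concentration, with 95% intervals from the limma fit, in mouse lung (left) and rat lung (right) after 5 (blue) and 15 (red) exposure days. Filled points have an adjusted p under 0.05. Both mouse probe sets of Cdkn1a rose at both times, and in the rat the 3 probe sets of Mdm2 rose at 5 days.

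In the rat, after 5 days at 200 ppm, Mdm2 and Trp53inp1 rose and none of the other 5 genes passed. At 90 ppm Mdm2 alone passed. Of all 11010 rat genes, 34.9% passed at 200 against 5 ppm (4.37% rose and 30.5% fell) and 22.6% at 90 against 5 ppm (3.93% rose and 18.6% fell). The median change of the 7 genes at 200 ppm was 0.03, where that of all genes was -0.14. No gene passed at 30 ppm (0 of 7 also by unadjusted limma p), where 0% of all genes did (13.2% by unadjusted p).

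Rat Mdm2 at 200 ppm for 5 days was at 10.05, 10.27, 10.28, 10.30 and 10.33, against 9.74, 9.95, 9.96, 9.97 and 10.01 at 5 ppm. The groups did not overlap. The change was 0.32 ± 0.09, or 1.25-fold (adjusted p = 0.00769), and the other 2 probe sets rose by 0.34 ± 0.12 (adjusted p = 0.0295) and 0.29 ± 0.09 (adjusted p = 0.0138). The first of these did not pass in the fit with RNA integrity numbers (0.29, adjusted p = 0.0923) or in that with the 3' minus 5' signal of the control transcripts (0.17, adjusted p = 0.0505), nor without rat 266, 269, 217 or 220, and the other did not pass without rat 217. The 5-day means were 9.92 ± 0.11 at 5 ppm, 10.06 ± 0.17 at 30 ppm, 10.18 ± 0.10 at 90 ppm and 10.25 ± 0.11 at 200 ppm (SD, n = 5 each). Neighbouring groups in this order overlapped. At 90 ppm the change was 0.26 ± 0.09 (adjusted p = 0.0376), and it did not pass in a fit with RNA integrity numbers (0.27, adjusted p = 0.143) or without any 1 of rats 217, 219, 221, 249, 250, 251, 252 and 253, with changes of 0.21 to 0.28 over the 10 rats.

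After 15 days the probe sets of rat Mdm2 went apart. The one with the highest signal was at 9.66, 10.15, 10.15, 10.20 and 10.26 in the rats at 200 ppm, against 9.94, 10.08, 10.13, 10.18 and 10.24 in those at 5 ppm, a change of -0.03 ± 0.09 (adjusted p = 0.868). The weakest one was at 8.26 to 8.55 at 200 ppm, against 7.53 to 8.41 at 5 ppm, and rose by 0.51 ± 0.12 (adjusted p = 0.019). Over the 40 rat arrays, as deviations from the group means, this weakest probe set had r = -0.84 with the 3' minus 5' signal of the control transcripts, and its change in a fit with that measure was 0.13 (adjusted p = 0.999). It also did not pass without rat 277, 225 or 228, with changes of 0.41 to 0.63 over the 10 rats. The group median of the 3' to 5' difference was 0.163 at 200 ppm and 0.437 at 5 ppm after 15 days. The remaining probe set of Mdm2, with r = -0.23 to that difference, had 15-day means of 9.60, 9.73, 9.76 and 9.85 at 5, 30, 90 and 200 ppm. Its limma change at 200 ppm did not pass, but it passed without rat 282 (0.34, adjusted p = 0.0182) or rat 226 (0.30, adjusted p = 0.0406). It also passed without the 3 rats whose titles do not name the tissue, rat 282 among them (0.34, adjusted p = 0.0153). The change of the gene from 5 to 200 ppm was 0.35 ± 0.12 smaller at 15 than at 5 days (adjusted p = 0.0584).

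Rat Trp53inp1, named Tp53inp1 on the rat array, was at 6.98 to 7.31 with a median of 7.11 after 5 days at 200 ppm, against 6.49, 6.49, 6.58, 6.60 and 7.14 at 5 ppm. All 5 exposed rats lay above the filter of 6.65 and 4 of the 5 rats at 5 ppm below it, so the level at 5 ppm is poorly measured. Of the exposed rats 2 were above all of the others, and the change was 0.48 ± 0.13 (adjusted p = 0.00729). The means were 6.66, 6.78, 6.95 and 7.13 at 5, 30, 90 and 200 ppm, and the change at 90 ppm of 0.29 ± 0.13 did not pass (adjusted p = 0.0791). After 15 days the change at 200 ppm was 0.09 ± 0.13 (95% interval -0.17 to 0.35, adjusted p = 0.708).

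Rat Cdkn1a was at 9.57, 9.72, 9.74, 9.77 and 9.83 after 5 days at 200 ppm, against 9.71, 9.75, 9.87, 9.93 and 10.15 at 5 ppm. The groups overlapped and the change was -0.16 ± 0.10 (95% interval -0.36 to 0.05, adjusted p = 0.221). The second probe set was at 0.11 ± 0.17. After 15 days Cdkn1a was at 9.67 to 10.32 in the rats at 200 ppm, against 9.83 to 10.00 in those at 5 ppm (95% interval of the change -0.21 to 0.20, adjusted p = 0.989). The second probe set was at 7.39 to 7.95 at 200 ppm, against 7.03 to 7.55 at 5 ppm. The groups overlapped and its change of 0.42 ± 0.17 did not pass (adjusted p = 0.17). As deviations from the group means, this probe set had r = -0.72 with the 3' minus 5' signal of the control transcripts. At 90 ppm, the one high concentration that both species shared, the 5-day change was 1.27 ± 0.17 in the mouse against 0 ppm and -0.11 ± 0.10 in the rat against 5 ppm. The references and arrays differ, so the species were not compared by a test.

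**Figure D3:**
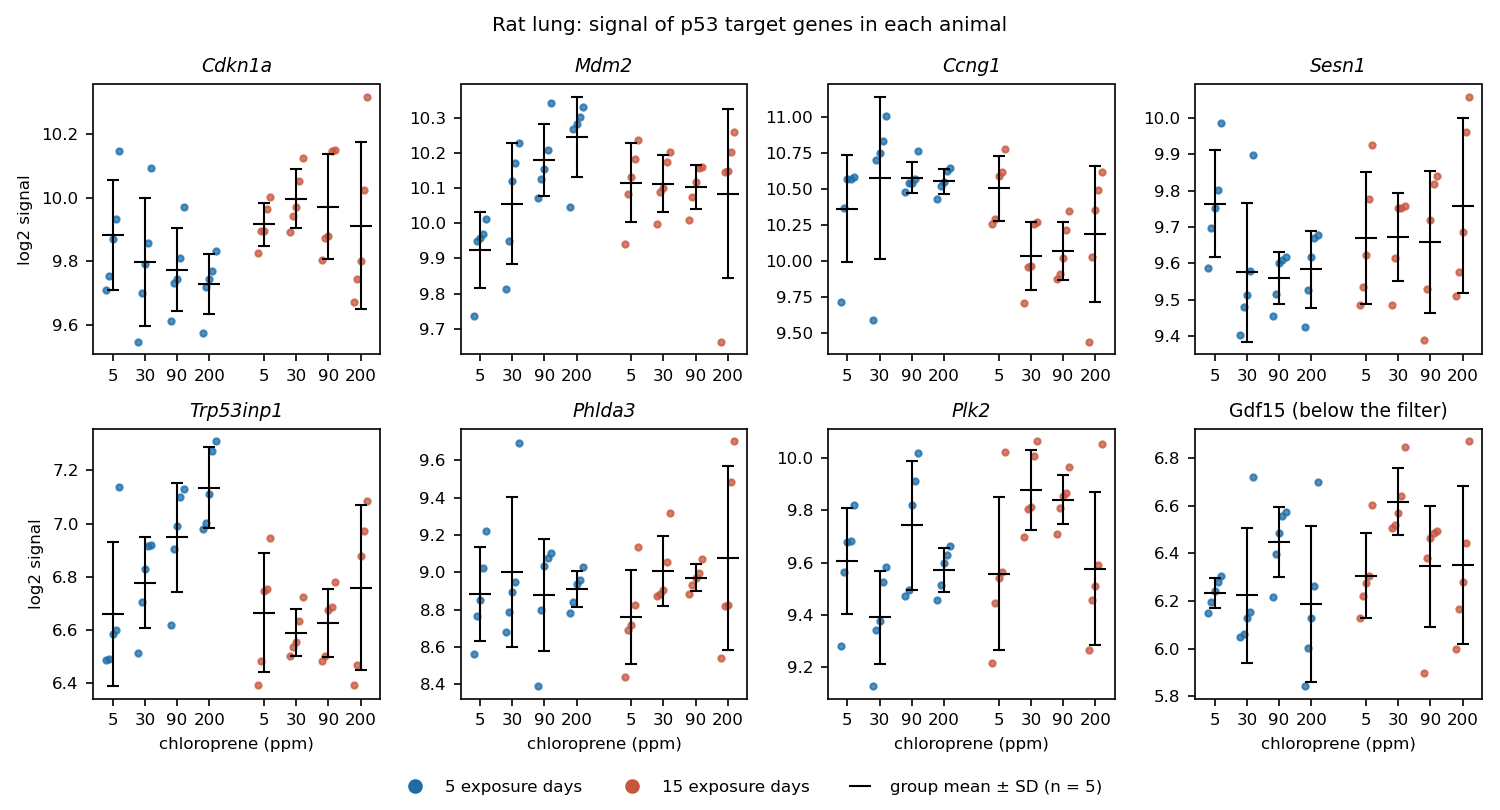
Log2 signal of the p53 target genes measured in rat lung, by concentration in ppm, after 5 (blue) and 15 (red) exposure days. Points are animals and black bars the group mean ± SD (n = 5), and each panel has its own axis. Each panel shows the probe set that stands for its gene. On these, Mdm2 and Trp53inp1 climb with concentration at 5 days and not at 15 days, Cdkn1a does not, and Gdf15 lies below the filter. Probe sets not shown had higher 15-day means at 200 than at 5 ppm for Mdm2 (9.85 against 9.60, and 8.42 against 7.91) and Cdkn1a (7.62 against 7.21).

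The other rat genes did not pass at any concentration. At 200 ppm for 5 days the changes were 0.19 ± 0.20 for Ccng1, -0.18 ± 0.10 for Sesn1, 0.03 ± 0.18 for Phlda3 and -0.03 ± 0.13 for Plk2. At 200 ppm for 15 days they were -0.32 ± 0.20 for Ccng1, 0.09 ± 0.10 for Sesn1, 0.31 ± 0.18 for Phlda3 and 0.02 ± 0.13 for Plk2. The second probe set of Sesn1 was at -0.01 ± 0.14 after 5 days and at 0.43 ± 0.14 after 15 days (adjusted p = 0.0941), where it passed without rat 226 (0.56, adjusted p = 0.0146). As deviations from the group means, this probe set had r = -0.81 with the 3' minus 5' signal of the control transcripts. After 15 days the group median of that signal was 0.163 at 200 ppm and 0.437 at 5 ppm, where rat 226 had 0.141. Of the 7 genes 0 passed in any 15-day comparison by limma, where 1.63%, 0.509% and 2.23% of all genes passed at 200, 90 and 30 ppm. By unadjusted p, 0 of 7 were counted at 200 ppm and 2 of 7, Ccng1 and Plk2, at 90 and at 30 ppm, against 17.7%, 13.4% and 25.6% of all genes at 200, 90 and 30 ppm. Of the differences between the times 0 of 7 passed (2 by unadjusted p), against 7.95% of all genes (44.9% by unadjusted p). Gdf15, a secreted stress cytokine, was below the filter in the rat and was not tested, with group means from 6.19 to 6.62.

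Further genes of the pathway were counted from a list of other p53 targets without the 10 above. In the mouse at 90 ppm for 5 days 9 of 39 tested rose and 1 fell, with a median change of 0.10. Of all genes 8.55% rose and 6.88% fell there. Slc19a2, a thiamine transporter, rose by 0.42, Ier5, an early response gene, by 0.45 and Sfn, the 14-3-3 protein that holds cells in G2, by 0.77. Dram1, a lysosomal protein of autophagy, fell by 0.31. At 15 days 2 of 39 rose, Slc19a2 by 0.47 and Ppm1d, a phosphatase that switches p53 signalling off, by 0.25, and Dram1 fell by 0.31 again. Of all genes 4.32% rose and 2.84% fell at that time, so these 15-day counts are near the background.

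In the rat at 200 ppm for 5 days 1 of 32 of these targets rose and 9 fell, with a median change of -0.16 beside the -0.14 of all genes. Of all genes 4.37% rose and 30.5% fell there, so these counts are near the background. Pidd1, an adaptor of apoptosis, fell by 0.43, Slc19a2 by 0.39 and Rps27l, a ribosomal protein paralogue, by 0.52, and the 1 that rose was Gadd45a (0.43), a DNA damage response gene. At 15 days 0 of 32 passed by limma, where 1.63% of all genes did.

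Among p53's regulators, 2 of 15 rose in the mouse at 90 ppm for 5 days, the p53 relative Trp73 (0.42) and Wrap53 (0.35), and none of 15 passed at 15 days. Of all genes 8.55% rose at 5 days and 7.16% passed in either direction at 15 days. In the rat at 200 ppm for 5 days Usp7, which removes ubiquitin from p53 and Mdm2, rose by 0.58, Mdm4, the partner of Mdm2, by 0.64, and Ppp1r13l fell by 0.16, 3 of 11 in all. In that comparison 34.9% of all genes passed, so this count is not above the background. Of the 5 other CDK inhibitors tested in the mouse, Cdkn1c rose by 1.02 and Cdkn2d by 0.41 at 5 days, while Cdkn2c fell by 0.77. At 15 days Cdkn1c rose by 0.74 and Cdkn2c fell by 0.60. Over all genes 8.55% rose and 6.88% fell at 5 days, and 4.32% rose and 2.84% fell at 15 days. In the rat at 200 ppm for 5 days Cdkn1b rose by 0.21, Cdkn3 fell by 0.74 and Cdkn2b by 0.35, of 6 tested, and 0 of 6 passed at 15 days. Over all rat genes 4.37% rose and 30.5% fell at 5 days, and 1.63% passed at 15 days.

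Other pathways and cell markers moved with exposure in the same lungs, and their part in the results above was not tested. In the mouse at 90 ppm all 14 NRF2 targets, genes of the oxidant response, rose at both times. Over all genes 8.55% rose and 6.88% fell at 5 days, and 4.32% rose and 2.84% fell at 15 days. Of 12 glucocorticoid-induced genes 4 rose and 1 fell at 5 days and 3 rose at 15 days. Of 17 immediate early genes 0 rose and 5 fell at 5 days and 1 fell at 15 days, and their mean per animal was 9.83 to 10.27 at 90 ppm, against 10.35 to 10.67 at 0 ppm after 5 days. Of 11 genes of the integrated stress response 2 rose and 1 fell at 5 days and 2 rose at 15 days. Of 10 proliferation genes 6 rose at 5 days and 1 at 15 days.

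Lymphocyte and ciliated cell markers shifted in the mouse as well. At 90 against 0 ppm after 5 days 7 of 8 B cell markers fell, with a mean per animal of 6.99 to 7.57 at 90 ppm and 8.10 to 8.43 at 0 ppm. Likewise 7 of 8 T and natural killer cell markers fell, with 7.27 to 7.81 at 90 ppm and 8.38 to 8.46 at 0 ppm. Of 9 ciliated cell markers 6 rose, with 9.89 to 10.24 at 90 ppm and 9.23 to 9.63 at 0 ppm. At 15 days 0 of 8, 1 of 8 and 4 of 9 of these markers passed in the same directions. At 0.3 ppm for 5 days the group mean of the B cell markers was 7.70, between 7.31 at 90 ppm and 8.20 at 0 ppm, and that of the glucocorticoid-induced genes was 11.79, between 11.97 at 90 ppm and 11.27 at 0 ppm. Of 6 club cell markers 3 rose at both times, and of 8 alveolar type 1 markers 2 fell at both times. Over all genes 8.55% rose and 6.88% fell at 5 days, and 4.32% rose and 2.84% fell at 15 days.

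In the rat at 200 ppm for 5 days 4 of 5 cardiac muscle markers rose, with a mean per animal of 6.03 to 8.28 at 200 ppm and 5.59 to 6.54 at 5 ppm, and 4 of 5 mesothelial markers fell, with 8.90 to 9.26 at 200 ppm and 9.59 to 10.12 at 5 ppm. Of 11 NRF2 targets 6 rose at 200 ppm at both times. Over all genes 4.37% rose and 30.5% fell at 200 ppm after 5 days, and 1.63% passed in either direction after 15 days. The median RNA integrity number was 7.65 at 200 ppm and 8.3 at 5 ppm. The part of these differences in the rises of Mdm2 and Trp53inp1 was not tested.

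Animals of one group also differed in a shared way across these genes. As deviations from the group mean over 45 mice, Ccng1 went with Trp53inp1 (r = 0.84, rho = 0.84) and with Mdm2 (r = 0.79, rho = 0.75), and against Phlda3 (r = -0.69, rho = -0.59). Cdkn1a had r = 0.06 with Ccng1 and went against Plk2 (r = -0.68, rho = -0.73). Of 49 pairs in both species, the relations of Ccng1 with Trp53inp1, Mdm2 and Phlda3 and that of Cdkn1a with Plk2 had adjusted permutation p of 6.13e-05, 6.13e-05, 6.13e-05 and 0.000196 for r. Without the 2 mice farthest from the median of the first gene, r was 0.83, 0.70, -0.60 and -0.65. In 40 rats Ccng1 again went against Phlda3 (r = -0.77, rho = -0.70) and also against Sesn1 (r = -0.81, rho = -0.82) and Cdkn1a (r = -0.67, rho = -0.66), while Cdkn1a and Plk2 had r = 0.20.

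**Figure D4:**
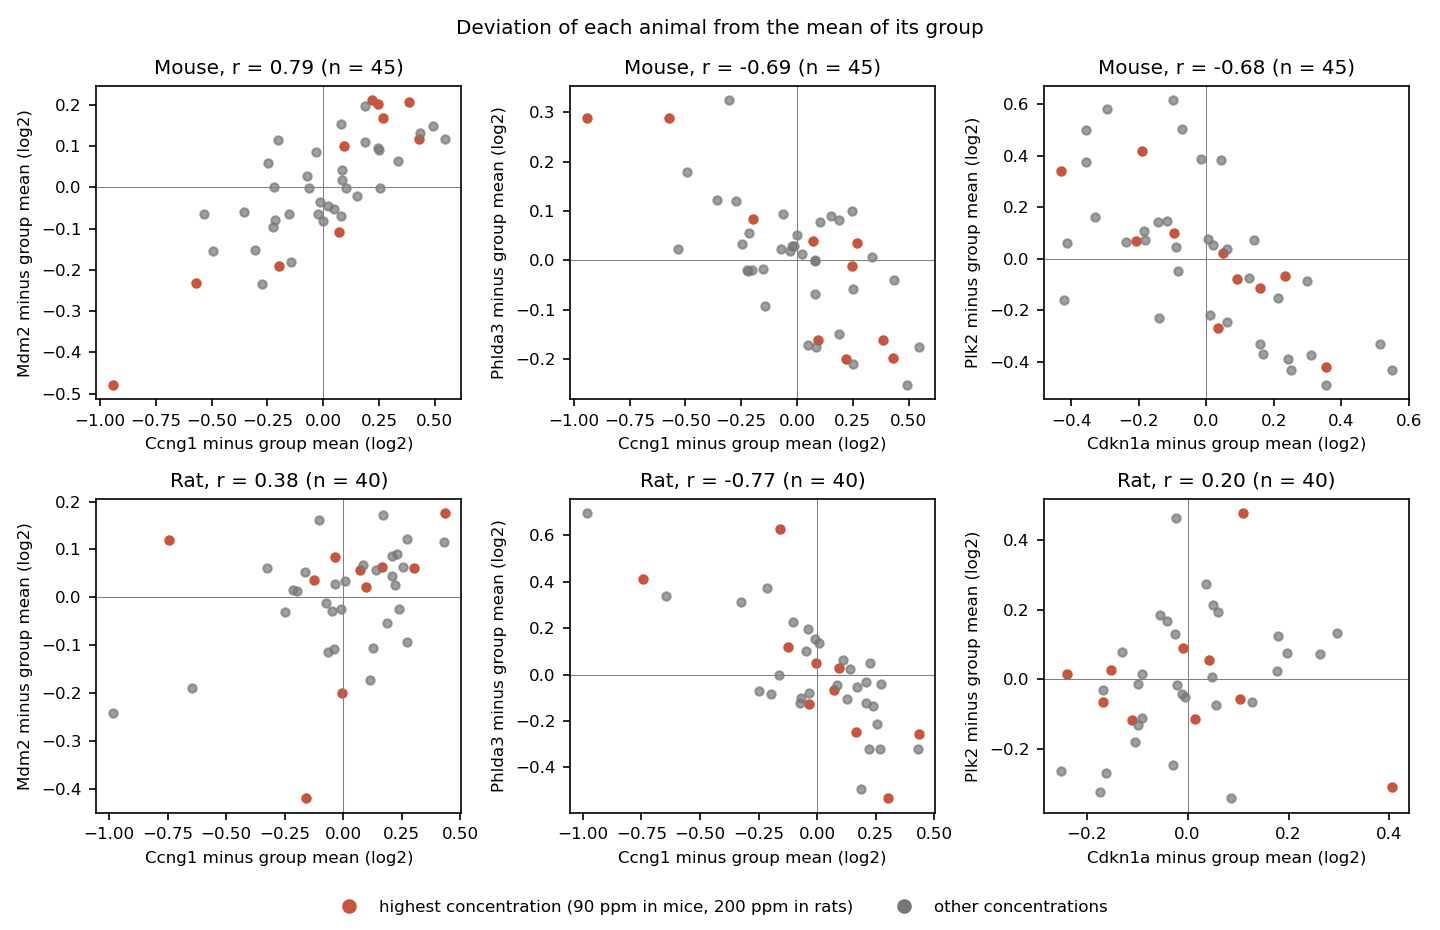
Deviation of each animal's log2 signal from the mean of its group for 3 pairs of p53 target genes, in 45 mice (top) and 40 rats (bottom). Red points are the highest concentration. In the mouse Ccng1 rises with Mdm2 (r = 0.79) and falls with Phlda3 (r = -0.69), and Cdkn1a falls with Plk2 (r = -0.68), while the last pair has r = 0.20 in the rat.

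The relations of Ccng1 ran along the main difference between arrays, and that of Cdkn1a with Plk2 in the mouse did not. The first component of the deviations of all tested probe sets held 38.5% of their variance in the mouse. Turned so that Ccng1 is positive, it had r = 0.94 with Ccng1, 0.91 with Trp53inp1, 0.85 with Mdm2 and -0.79 with Phlda3, against 0.02 with Cdkn1a and -0.30 with Plk2. In the rat it held 64.0% of the variance and had r = 0.93 with Ccng1, -0.91 with Sesn1, -0.78 with Cdkn1a and -0.75 with Phlda3. What this component stands for was not tested.

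The 3 genes whose group means followed those of Cdkn1a most closely were Mnt (r = 0.988), Adamts15 (r = 0.984) and Baiap2 (r = 0.980) over the 9 mouse groups, and Gjb2 (r = 0.993), Ogg1 (r = 0.985) and Sec24d (r = 0.984) over the 8 rat groups. None of them is a member of the 10, and the choice was made for likeness alone. In the rat many genes had a high r: Sesn1, with r = 0.64, ranked 5340 of 11009 genes. Rat Cdkn1a itself passed in no comparison.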

How the data were processed

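Per the labels' protocols, total RNA of the right lung was extracted with Trizol and RNeasy columns, labelled with biotin and hybridised to Affymetrix arrays. The authors deposited log2 values, 1 per probe set and array. The summarisation and normalisation by the authors are not given in the sources used here. Probe sets with 1 gene symbol were kept where the signal exceeded the 40th percentile of the species table on at least 5 arrays, which left 24434 probe sets of 13796 genes in the mouse and 15109 of 11010 genes in the rat. Group means were fitted per species (limma 3.58.1, R 4.3.3, empirical Bayes) and compared in 15 contrasts, after a check of the code on simulated data.

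The 10 genes and the other lists were chosen with earlier results of these data known. All 10 genes are named. Of the other lists, up to 4 genes per comparison with the smallest p among those that passed were to be named, and of Cdkn1a's neighbours the 3 with the highest r. Correlations between genes used 100000 permutations within groups (scipy 1.17.1, two-sided). Alternatives covered filter, normalisation, probe sets, moderation, covariates (RNA integrity number, 3' minus 5' control signal), label doubts, reference and each animal.

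In 9 mice labelled 15 days by title, another label gives a different duration, and the title was followed. A letter follows the number of 6 mice, and 7 arrays lack an integrity number. The titles of 3 rats, 239, 269 and 282, do not name the tissue. None of the 85 arrays was dropped from the main fits. Alternative fits left out arrays without an integrity number, with doubtful labels or of the other time, or single animals.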

Additional observations from a re-analysis of the deposited data

Results flagged for a closer look

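Of 128 checks of a gene in a group of 5 animals, 11 had 1 animal far from the other 4, by Dixon's test at the 95% level. Chance alone flags about 1 in 20 groups. In the mouse these were Ccng1 in mouse 165 at 90 ppm for 5 days (lowest, 9.85), Phlda3 in mouse 143 at 2 ppm for 15 days (lowest, 9.95), Plk2 in mouse 104 at 0 ppm for 5 days (lowest, 10.81) and Sesn1 in mouse 137 at 2 ppm for 5 days (lowest, 10.37).

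In the rat they were Ccng1 in rat 239 at 30 ppm for 5 days (lowest, 9.59), Ccng1 in rat 217 at 5 ppm for 5 days (lowest, 9.72), Mdm2 in rat 282 at 200 ppm for 15 days (lowest, 9.66), Mdm2 in rat 268 at 200 ppm for 5 days (lowest, 10.05), Mdm2 in rat 217 at 5 ppm for 5 days (lowest, 9.74), Phlda3 in rat 239 at 30 ppm for 5 days (highest, 9.69) and Trp53inp1 in rat 222 at 5 ppm for 5 days (highest, 7.14). Rats 217 and 239 appear in 2 of these results each. The titles of rats 239 and 282 do not name the tissue. On the first component of all tested probe sets described above, rat 239 scored -0.475, the lowest in the rat, and rat 217 scored -0.362. Rat 222 scored 0.304, the highest in the rat, and rats 282 and 268 scored -0.213 and 0.008. Mouse 165 scored -0.327, the lowest in the mouse, and mouse 143 scored 0.217, the highest. Mice 104 and 137 scored 0.010 and 0.124.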

How the results depend on the processing

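The count of p53 target genes that passed was within 1.5 times of the reported one in 164 of 174 combinations of comparison and setting other than leaving out 1 animal, and no called change turned its direction. In most of these comparisons the reported count was 0 and could not fall, and the loss of 1 of 4 called genes stays within that limit. The share therefore says little about how stable the called genes are. In the mouse at 90 ppm for 5 days the count of 2 became 1 in a fit with RNA integrity numbers and 1 with the 0.3 ppm mice as the reference; Cdkn1a passed in both. At 90 ppm for 15 days the count of 4 became 1 without the mice of conflicting duration, which leaves 2 at 90 and 2 at 0.3 ppm, 2 without the mice with lettered numbers and 2 with a fold of at least 1.5. In the rat at 200 ppm for 5 days the count of 2 became 1 with the filter at the 60th percentile, which drops Trp53inp1, and 0 with the fold limit. At 90 ppm the count of 1 became 0 with the RNA integrity number and 0 with the fold limit. The rat difference between times went to 1 (Mdm2, adjusted p = 0.0454) with quantile normalisation. Where no construction is named, the cause was not tested.

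Without 1 animal at a time the counts spanned 2 to 2 (mouse, 90 ppm, 5 days), 2 to 4 (90 ppm, 15 days; 2 without mouse 179), 0 to 1 (13 ppm, 5 days; 1 without mouse 149), 2 to 2 (rat, 200 ppm, 5 days), 0 to 2 (90 ppm, 5 days; 2 without rat 222), 0 to 1 (30 ppm, 15 days; 1 without rat 226) and 0 to 2 (rat difference between times; 2 without rats 279 or 222, 1 without 281 or 228). All others were 0 to 0. Btg2 in the mouse at 90 ppm for 5 days passed with the 3' to 5' difference as a covariate (-0.38, adjusted p = 0.0144) and as the mean of its probe sets (-0.41, adjusted p = 0.0406). Sesn1 at 15 days did not pass as the mean of its probe sets (0.21, adjusted p = 0.157). No paired analysis was possible because animal numbers are not shared between groups.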
